A study of Drosophila melanogaster with 4 samples.

Results

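Tightly spaced H3K4me2 regions were enriched regions lying less than 500 bp from the previous or the next region of the same list. They were chosen by their measured gaps, the bases left between the end of 1 region and the start of the next, on the arms of chromosomes 2 and 3 (2L, 2R, 3L, 3R) and on 4 and X. The choice gave 673 of the 4682 regions on these 6 arms in replicate 1 and 605 of 4630 in replicate 2, of 4752 and 4701 regions in the whole lists. The deposited combined list, made by the authors from both replicates, held 792 such regions among 4908 on the arms and 4991 in all.

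The study measured dimethylation of lysine 4 of histone H3 by ChIP-seq, the sequencing of immunoprecipitated chromatin, in wild-type Oregon-R Drosophila melanogaster at the third larval instar. It had 4 samples, of which 2 were immunoprecipitates made with an Active Motif antibody and 2 were their inputs. No group carried a transgene or received a treatment, and the age of the larvae was given only as the instar. Values of the inputs were not analysed here. The chromatin came from nuclei of homogenised tissue, so each list averages over many cell types. The labels do not state that the replicates came from separate collections, and their spread may be a technical one.

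H3K4me2 is a mark of active and poised chromatin, laid down in flies by methyltransferases of the Trithorax group and their relatives. It lies around the promoters and over the 5′ parts of transcribed genes, and also at enhancers. At an active start site the DNA is often free of nucleosomes, which leaves a dip in the signal of any histone mark. A region caller can report such an uneven stretch as 1 region or as several.

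The lists hold coordinates and 1 score per region, whose scale is not stated, and no read counts, so sequencing depth is unknown. Intervals in parentheses are exact binomial 95% intervals, which take in the counting error alone and handle neighbours as if independent. Means are given with their SD over n = 2 replicates. With 2 lists of 1 group, no test over samples was run.

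Tightly spaced regions made up 14.4% (13.4 to 15.4) of regions on the arms in replicate 1 and 13.1% (12.1 to 14.1) in replicate 2, a mean of 13.7% ± 0.924 (SD, n = 2). They held a mean of 14.2% ± 1.39 (SD, n = 2) of the sequence covered by regions on the arms. So the tightly spaced regions took close to the same share of covered sequence as of regions. Among the spaces between neighbouring regions, 357 of 4676 in replicate 1 (7.63%) and 319 of 4624 in replicate 2 (6.90%) were under 500 bp, a share that the rule itself sets.

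The limit of 500 bp fell on no break in spacing that both replicates shared. In blocks of 500 bp from 0 upward, replicate 1 had 357, 262, 228, 207 and 177 gaps, and replicate 2 had 319, 269, 233, 212 and 172. Counts thus fell with distance in both lists, with the most gaps in the shortest block. Across the limit itself, replicate 1 went from 74 gaps of 400 to 499 bp to 51 of 500 to 599 bp, and replicate 2 from 47 to 54. In replicate 1 the last gaps inside the limit were 498 bp (2L, between regions scoring 1.48 and 2.23) and 499 bp (3R, 0.529 and 2.02), and the next outside were 502 bp (X, 1.89 and 1.13) and 503 bp (3R, 1.77 and 1.99). In replicate 2 a pair of gaps of 493 bp lay just inside, both on 3R, and gaps of 500 bp on 2L and 502 bp on 3L lay just outside. The score ranges on either side of the limit overlapped.

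**Figure D1:**
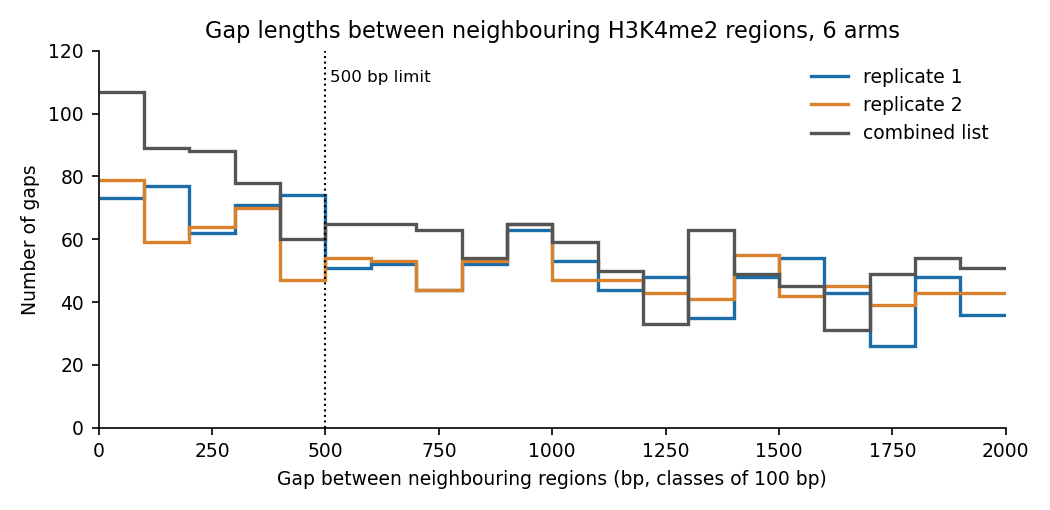
Number of gaps between neighbouring regions on the 6 arms (vertical axis) by gap length in bp (horizontal axis) in each list, with the limit of 500 bp marked. Counts fall with distance, and at the limit they go from 74 to 51 in replicate 1 and from 47 to 54 in replicate 2.

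Within the limit, replicate 1 had a median gap of 245 bp, with quartiles of 128 and 375 bp. Replicate 2 had a median of 230 bp, with quartiles of 101 and 345.5 bp. Gaps of 10 bp or less numbered 12 in replicate 1 and 6 in replicate 2. One gap in each replicate was 0 bp, so that 2 regions were reported back to back. In replicate 1 these were 2R 14052524 to 14056587 and 14056588 to 14062885, scoring 2.36 and 1.54. In replicate 2 they were 2R 19580620 to 19583311 and 19583312 to 19592304, scoring 1.71 and 2.11. Both places were covered by a single region in the other replicate and in the combined list.

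Most tightly spaced regions came as isolated pairs. Joining neighbours across every gap under 500 bp gave 316 runs in replicate 1, of which 280 were of 2 regions, 31 of 3 and 5 of 4. In replicate 2 there were 286 runs, of which 256 were of 2 regions, 27 of 3 and 3 of 4. No run was longer than 4 regions in either replicate, and runs of 3 or more numbered 33 on average. The median span of a run from end to end was 8.81 kb in replicate 1 and 8.51 kb in replicate 2, and the longest reached 38.7 kb and 28.3 kb. Runs of 2 spanned a median of 8095 and 8159 bp, runs of 3 15050 and 12628 bp, and runs of 4 20903 and 20581 bp.

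The runs of 4 differed in how far they were found again. The run at X 2023670 to 2044572 was the only place with a tight run of 4 in both replicates and in the combined list. Its gaps were 412, 281 and 90 bp in replicate 1 and 370, 161 and 201 bp in replicate 2, and its scores ran from 1.03 to 2.11 and from 0.758 to 1.77. The lowest score belonged to the outer, leftmost region in both replicates and the highest to the rightmost. In the combined list the same gaps narrowed to 134, 133 and 13 bp. The run of 4 at 3R 4623766 to 4652050 in replicate 2, with gaps of 203, 208 and 410 bp, was a run of 3 in replicate 1, where the gaps were 315, 354 and 516 bp. All 4 regions were called in both replicates, and only the last gap crossed the limit.

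The other runs of 4 were broken up in the other replicate by gaps over the limit and, at 1 place, by a region that was not called. At 3R 8514365 to 8532387, replicate 2 had gaps of 488, 281 and 488 bp where replicate 1 had 683, 342 and 565 bp, so that only the middle gap was tight in both. On 2L the runs of replicate 1 at 8002553 to 8014002 and 15759860 to 15771977 each had 4 regions over the same span in replicate 2. On X, the run of replicate 1 at 6565328 to 6595794 also had 4 regions in replicate 2, and that at 1780634 to 1806947 had 3. The combined list held between 2 and 4 regions over these spans. The longest run of any list was a run of 4 in the combined list at X 1750974 to 1809655, which spanned 58.7 kb.

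**Figure D2:**
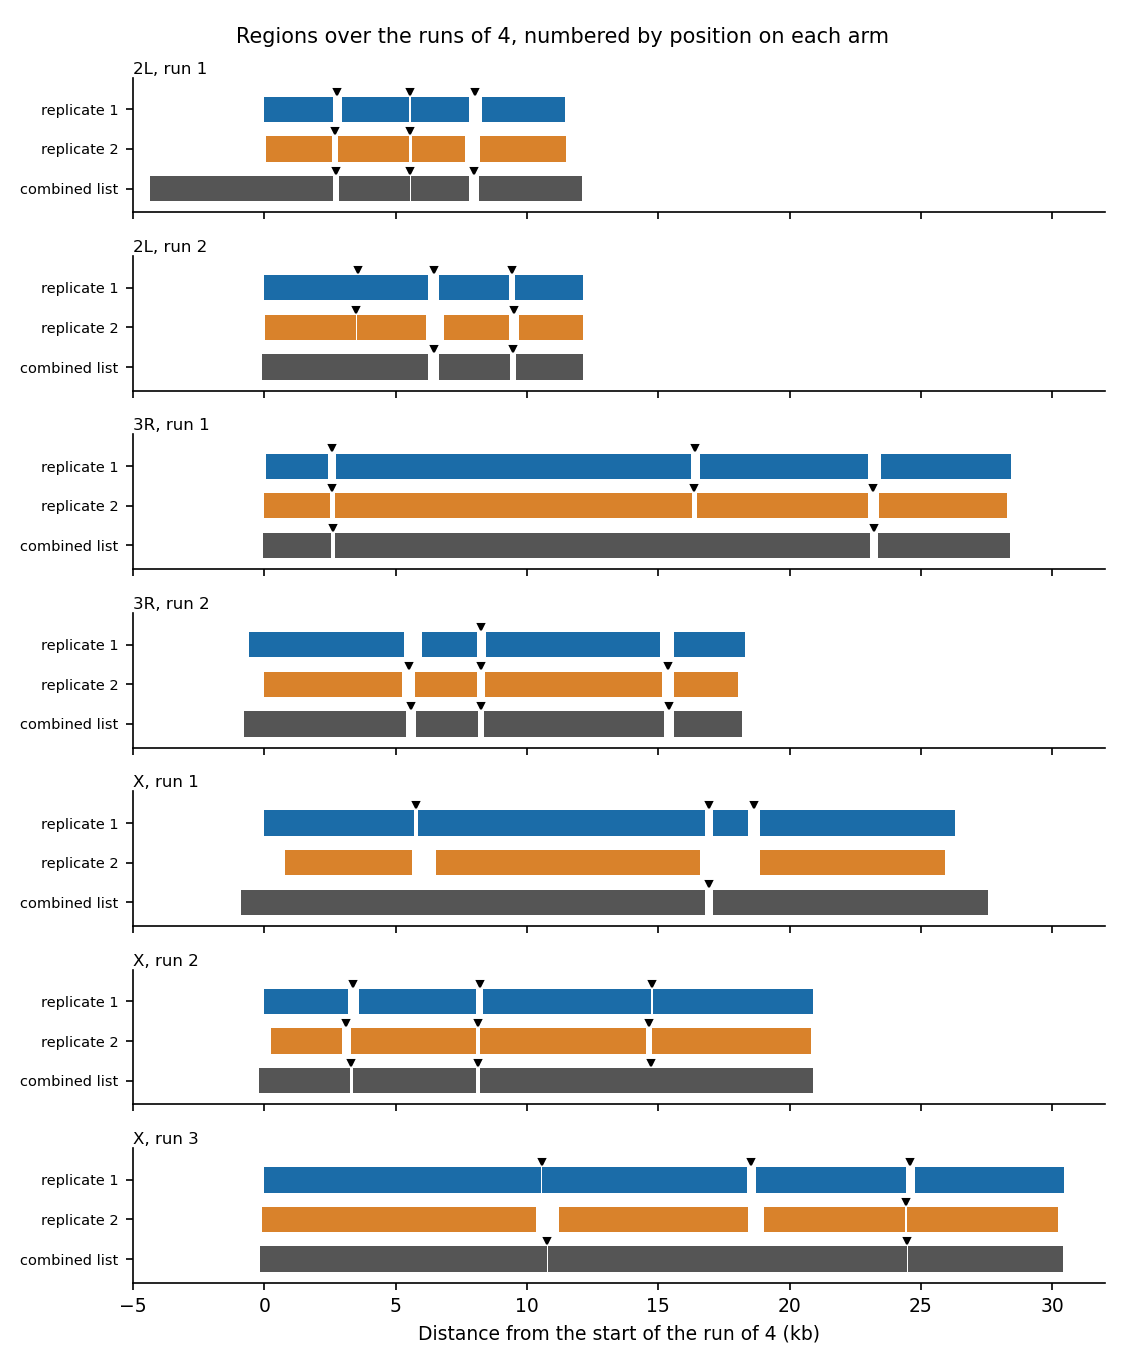
Regions (bars) of replicate 1, replicate 2 and the combined list over the 7 places where a replicate had a run of 4, by distance in kb from the start of the run. Triangles mark gaps under 500 bp, some of which are too narrow to be seen at this scale, and X run 2 is the place with a tight run of 4 in all 3 lists.

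Among runs of 3, that at 3R 2897591 to 2921756 had gaps of 378 and 192 bp in replicate 1 and 438 and 158 bp in replicate 2. The run at 3R 12062782 to 12083584 had gaps of 219 and 170 bp in replicate 1 and 221 and 159 bp in replicate 2. In these runs the wider gap was the left one in both replicates. At X 15736112 to 15758014 the gaps were 83 and 249 bp in replicate 1 and 57 and 6 bp in replicate 2, so the order of the gaps differed. There the combined list had 2 regions with 2 bp between them.

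On 2R, 3L and 3R the longest run found in both replicates was a short region beside a very long one. At 3R 25860568 to 25887116 a region of 2842 bp (score 1.97) lay 145 bp from one of 23562 bp (score 2.17) in replicate 1, and the gap was 150 bp in replicate 2. At 2R 8051810 to 8073139 a weak region of 2001 bp (score 0.455) lay 183 bp from one of 19146 bp (score 2.17) in replicate 1. In replicate 2 the weak region scored 0.414 and the gap was 100 bp. At 3L 9703704 to 9725134 regions of 18752 and 2642 bp were 37 bp apart in replicate 1 and 39 bp apart in replicate 2, the narrowest replicated gap by the larger of its lengths, and the combined list covered both with 1 region of 21.4 kb. On 2L, the run at 2743931 to 2772092 had gaps of 446 and 343 bp in replicate 1. In replicate 2 the first gap was 180 bp and the second 507 bp, just outside the limit.

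Each tight gap was then looked up in the other replicate, which had no part in choosing it. Of the 357 tight gaps of replicate 1, 157 (44.0%, 38.8 to 49.3) were also under 500 bp in replicate 2, between regions overlapping both flanks. Of the 319 tight gaps of replicate 2, the same 157 gaps (49.2%, 43.6 to 54.8) were under 500 bp in replicate 1. The mean share was 46.6% ± 3.70 (SD, n = 2). Over all gaps of a list, tight and wide, the share with a tight counterpart was 3.96% for replicate 1 and 4.97% for replicate 2. Most gaps at large are far wider than the limit, so this background is low by construction. Of gaps of 500 to 999 bp, 8.78% from replicate 1 and 20.1% from replicate 2 had a tight counterpart. Tight gaps were found tight again more often than these nearest wider gaps, which must be shorter in the other replicate to count as tight. That order is thus largely set by the limit, and no conclusion is drawn from it. Fewer than 50.0% of tight gaps were tight again in either direction.

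A region of the other replicate ran across the gap and joined both flanks in 85 cases from replicate 1 (23.8%, 19.5 to 28.6) and 105 from replicate 2 (32.9%, 27.8 to 38.4), a mean of 28.4% ± 6.44 (SD, n = 2). Over all gaps the shares were 2.18% and 2.88%. In another 12 cases from each replicate the gap was covered but another tight gap lay within 500 bp of it. Counterparts of 500 bp or more were found for 73 gaps of replicate 1 (20.4%, 16.4 to 25.0) and 28 of replicate 2 (8.78%, 5.91 to 12.4). With 1 list per replicate and unknown depth, this difference was not tested. Most of these wider counterparts were close to the limit, with 54 of 73 and 23 of 28 between 500 and 999 bp.

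The widest counterparts stood at individual places. A gap of 440 bp on 3L, after a region ending at 229119 in replicate 1, was 2331 bp in replicate 2 and 352 bp in the combined list. A gap of 213 bp on 2R, after a region ending at 15185403 in replicate 2, was 2345 bp in replicate 1 and 350 bp in the combined list. These wide spaces in 1 replicate were tight in the combined list at both places.

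A flank had no region in the other replicate for 30 gaps of replicate 1 (8.40%) and 17 of replicate 2 (5.33%). These shares were close to the 8.64% and 5.30% over all gaps. Region by region, 642 of 673 tightly spaced regions (95.4%, 93.5 to 96.8) of replicate 1 overlapped a region of replicate 2 by at least 1 bp, against 95.5% of all its regions. For replicate 2 the count was 587 of 605 (97.0%, 95.3 to 98.2), against 97.3%. The tightly spaced regions were thus found again about as often as any region, and what varied was the gap. The 31 and 18 of them without a counterpart were short and weak, with median lengths of 1607 and 1522 bp and no score above 0.636 and 0.632.

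**Figure D3:**
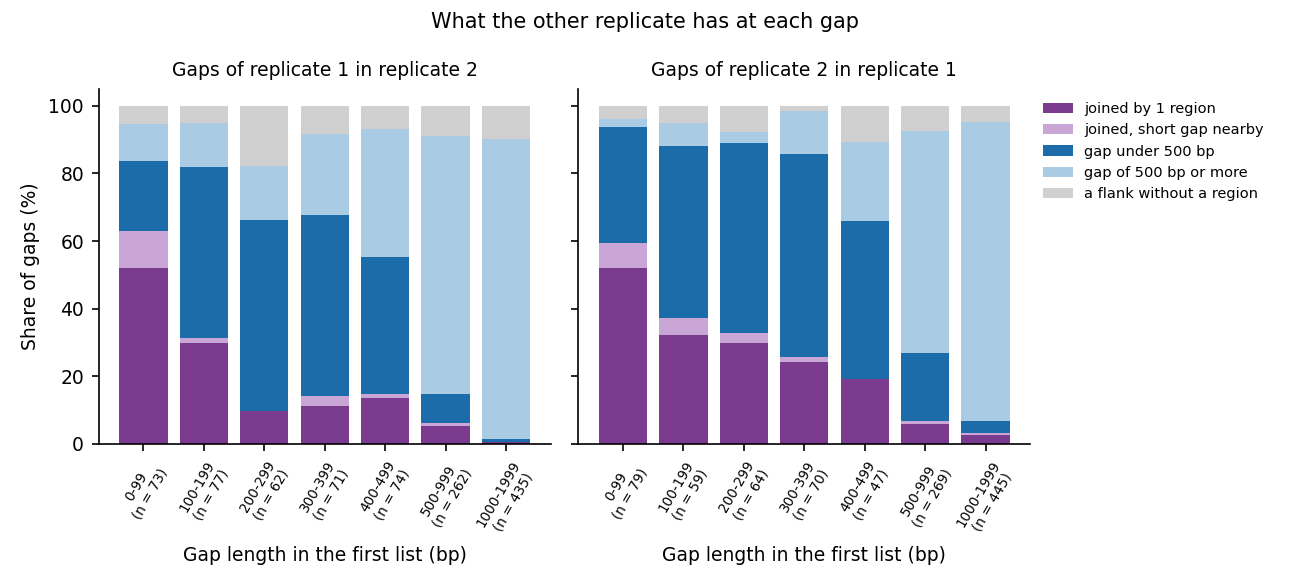
Share of gaps in percent (vertical axis) by what the other replicate had in their place, for classes of gap length in bp (horizontal axis), with the number of gaps under each bar. Joining by 1 region is commonest at 0 to 99 bp, at 52.1% and 51.9%, and counterparts of 500 bp or more prevail beyond the limit.

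The outcome differed with the length of the gap. Among gaps of 0 to 99 bp, replicate 2 joined 52.1% of those of replicate 1, and replicate 1 joined 51.9% of those of replicate 2. Among gaps of 100 to 199 bp the shares were 29.9% and 32.2%. In the 3 classes from 200 to 499 bp they were 9.68%, 11.3% and 13.5% for replicate 1, and 29.7%, 24.3% and 19.1% for replicate 2. Joining was thus commonest at the narrowest gaps in both, and past 200 bp it was lower for the gaps of replicate 1. Just beyond the limit, at 500 to 999 bp, the shares were 5.34% and 5.95%. The median joined gap was 128 bp for replicate 1 and 165 bp for replicate 2, while gaps tight in both had medians of 258 and 259 bp and gaps with wider counterparts 367 and 369.5 bp.

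The weaker flank of a gap also differed with the outcome. In replicate 1 the lower of the 2 flank scores had a median of 0.770 at joined gaps, 1.48 at gaps tight in both and 1.67 at gaps with wider counterparts. In replicate 2 the medians were 1.26, 1.33 and 1.19. Of these 3 outcomes, joined gaps had the lowest weaker flank in replicate 1, whereas in replicate 2 gaps with wider counterparts did, so the order was not shared. At gaps with a missing flank the medians were the lowest, at 0.440 and 0.433, and the shorter flank was 1555.5 and 1522 bp long.

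A joining region has to reach both flanks of its gap, so the rule itself favours long regions. Their median lengths were close to what runs of 2 span, 8095 and 8159 bp for replicates 1 and 2. No conclusion is drawn from the length of the joining regions. The 85 regions of replicate 2 that joined gaps of replicate 1 had a median length of 8.27 kb, and 29 of them were 10 kb or longer, 11.1% of all 261 such regions of that list. The 103 regions of replicate 1 that joined gaps of replicate 2 had a median of 8.45 kb, and 34 were 10 kb or longer, 12.0% of 284. The longest region of replicate 2, 38.1 kb at 3R 7033739 to 7071863 (score 2.26), covered 2 regions of replicate 1 of 31511 and 7084 bp (scores 2.54 and 2.08) with 108 bp between them. In the other direction, a region of replicate 1 of 24.3 kb at 2L 6459630 to 6483970 covered regions of 9549 and 14815 bp of replicate 2 that were 135 bp apart. At 2R 19849737 to 19872112, replicate 1 split a flank of 1618 bp scoring 0.478 from a region of 20712 bp, 46 bp away, and replicate 2 had 1 region of 22.3 kb.

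The 157 gaps that were tight in both replicates were matched by their flanks, so each pair of gaps had to overlap or touch. With both under 500 bp, this limits how far apart they can lie. Their midpoints differed by a median of 41 bp, 135 of them (86.0%) by no more than 100 bp. Of the 157, 156 shared at least 1 base, which the matching nearly fixes. The edges of the flanking regions shifted by a median of 44 bp. Gap length had a median absolute difference of 75 bp and a largest of 463 bp, set against median gaps of 258 and 259 bp. The gap was narrower in replicate 2 at 90 places, wider at 66 and equal at 1. Across the 157 gaps, Spearman's rho between lengths was 0.47 and Pearson's r 0.47, a description of gaps that all lie under 500 bp in both lists by the rule.

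**Figure D4:**
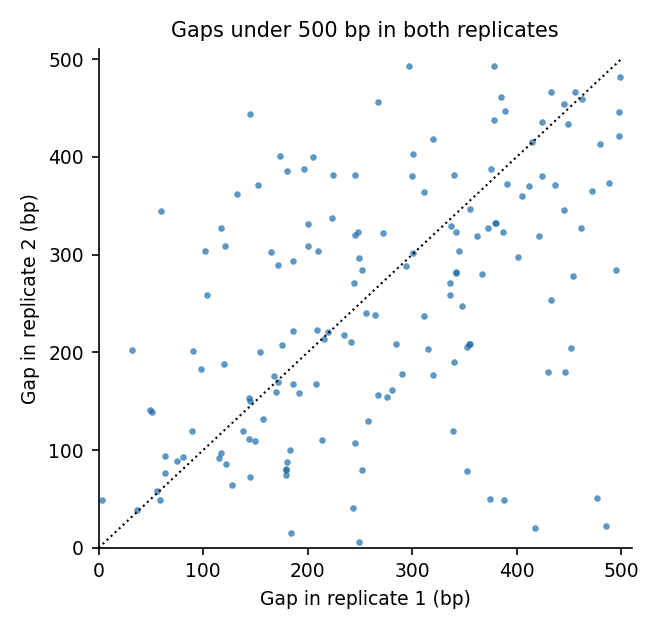
Gap length in replicate 2 against gap length in replicate 1, both in bp, for the 157 gaps under 500 bp in both replicates. Points scatter widely around the line of equal length, with a median absolute difference of 75 bp.

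Some replicated gaps were very narrow. After the 3L pair described above, they were a gap after 2L 18455443 (3 bp in replicate 1 and 49 bp in replicate 2), one after 3R 16390630 (56 and 58 bp), one after X 21874670 (59 and 49 bp) and one after 3R 469671 (63 and 77 bp). The combined list joined the regions at the first 2 of these 4 places and kept gaps of 7 bp and 1 bp at the others.

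Taken as runs, 170 of the 316 runs of replicate 1 (53.8%) overlapped a run of replicate 2, and 171 of 286 (59.8%) in the other direction. Region by region, 51.9% and 59.5% of tightly spaced regions overlapped a tightly spaced region of the other replicate. Of the other regions, 3.72% and 5.66% did. Of the 171 overlapping pairs, 145 had the same number of regions. Over the whole span of a run, whatever the gaps, the other replicate had the same number of regions for 195 of 316 runs (61.7%) and 165 of 286 (57.7%), fewer for 102 and 112, and more for 19 and 9. Among runs of 3 or more, 27 of 36 (75%) kept their number in replicate 2 and 15 of 30 (50%) in replicate 1. Over all runs, region number was thus kept at most places, but for runs of 3 or more of replicate 2 it was kept at only 50%. A run was chosen for having at least 2 regions in its own list, which favours lower numbers in the other.

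The deposited combined list joined more of these gaps than either replicate did. It held 1 region across 156 of the 357 gaps of replicate 1 (43.7%, 38.5 to 49.0) and 160 of the 319 of replicate 2 (50.2%, 44.5 to 55.8), a mean of 46.9% ± 4.57 (SD, n = 2), against 4.49% and 5.00% of all gaps. It kept a tight gap at 185 (51.8%) and 152 (47.6%), against 6.35% and 6.53% of all gaps. Gaps of 500 to 999 bp lay between, with 14.1% of those of replicate 1 and 17.5% of those of replicate 2 joined. The combined list had a tight gap at 29.0% and 34.9% of them. Of the 357 and 319 tight gaps, a wider gap remained at 9 and 3, and a flank was missing at 1 and 0. Since this list was made from the same immunoprecipitates, these counts describe the calling and are not a further replicate.

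What the combined list did went with the other replicate. Where the other replicate joined a gap, the combined list joined it too at 81 of 85 places for replicate 1 (95.3%, 88.4 to 98.7) and 101 of 105 for replicate 2 (96.2%, 90.5 to 99.0). Where both replicates had a tight gap, the combined list joined 38 of 157 (24.2%, 17.7 to 31.7). Where the other replicate had a wider gap, it joined 14 of 73 and 4 of 28, and had a tight gap at 52 and 22. Where a flank was missing in the other replicate, it joined 11 of 30 and 5 of 17. So even replicated gaps were lost in the combined list at nearly 1 place in 4.

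Gaps that survived in the combined list were narrower there. At the 119 gaps tight in all 3 lists, counted from replicate 1, the median was 281 bp in replicate 1, 284 bp in replicate 2 and 157 bp in the combined list. The combined gap was narrower than both at 110 (92.4%) and wider than both at 0. By size, the combined list joined 79.5% and 78.5% of gaps of 0 to 99 bp and 25.7% and 29.8% of those of 400 to 499 bp. Of its own 422 tight gaps, 117 were tight in both replicates, 81 were wider in both, and 220 (52.1%) were tight in at least 1. The regions of the combined list reached down to 1001 bp in length, against 1301 bp in each replicate. At 87 of its tight gaps each replicate lacked a region at a flank, not necessarily at the same flank.

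Score and length had no part in the rule. Tightly spaced regions scored somewhat higher than the rest of their list, with medians of 1.68 against 1.53 in replicate 1 and 1.51 against 1.42 in replicate 2. Of the tightly spaced regions, 391 of 673 (58.1%, 54.3 to 61.9) and 343 of 605 (56.7%, 52.6 to 60.7) lay above the median score of their list, against 50.0% of all regions in replicate 1 and 50.0% in replicate 2. The mean share was 57.4% ± 0.993 (SD, n = 2), and that of the other regions 48.8% ± 0.250. The difference was larger than the spread between replicates. With a limit of 1000 bp the share above the median was 57.1% in replicate 1 and 56.4% in replicate 2. Both flanks scored 1 or more at 56.3% and 58.3% of tight gaps, against 57.3% and 56.5% of gaps of 500 bp to under 1000 bp. By these values, higher scores were not particular to gaps under 500 bp.

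Length differed less. The median tightly spaced region was 3530 bp in replicate 1, against 3387 bp for other regions, and 3435 against 3405 bp in replicate 2. The differences of 143 and 30 bp gave a mean of 86.5 ± 79.9 bp (SD, n = 2), so the size of the difference was about that of its spread. Among regions scoring above the list median, the difference turned to -71.25 bp. Regions under 2 kb made up 13.2% of the tightly spaced regions in replicate 1 and 10.1% in replicate 2, against 9.95% and 9.46% of all regions. Regions of 5 kb or more made up 33.0% and 28.9%, against 28.2% and 27.4%. Regions of 10 kb or more numbered 50 (7.43%) and 33 (5.45%), against 6.07% and 5.64%. In replicate 1 both short and long regions were more frequent among the tightly spaced ones, and in replicate 2 the shares were close to those of the list.

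The flanks of a tight gap were only loosely alike. Spearman's rho between the scores of the left and right region was 0.20 in each replicate over 357 and 319 tight gaps, and 0.12 and 0.15 over gaps of 500 bp or more. Over the nearest of these, from 500 bp to under 1000 bp, it was 0.16 and 0.20. A region of 5 kb or more lay beside one under 2 kb at 27 tight gaps in replicate 1 (7.56%) and 15 in replicate 2 (4.70%), against 4.33% and 4.37% of all wider gaps and 4.58% and 6.69% of those under 1000 bp. Both flanks were 5 kb or longer at 45 (12.6%) and 31 (9.72%), against 9.31% and 9.04% of all wider gaps and 11.1% and 13.4% of those under 1000 bp. Set against the nearest wider gaps, both shares at tight gaps were higher in replicate 1 and lower in replicate 2, so neither held in both.

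Tight gaps bear on how many very broad regions a list holds. Joining across every gap under 500 bp took the regions on the arms from 4682 to 4325 in replicate 1 and from 4630 to 4311 in replicate 2. Regions of 10 kb or more rose from 284 to 368 (29.6% more) and from 261 to 329 (26.1% more), and those of 20 kb or more from 20 to 38 and from 15 to 28. The longest region rose from 31.5 to 38.7 kb in replicate 1 and stayed at 38.1 kb in replicate 2. The median length moved only from 3404 to 3620 bp and from 3409.5 to 3616 bp. Joining left the agreement on very broad regions much as it was. Before it, 235 of 284 regions of 10 kb or more of replicate 1 (82.7%) overlapped one of replicate 2, and after it 303 of 368 (82.3%). From replicate 2 the shares were 90.04% before and 92.7% after.

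By arm, tightly spaced regions were most frequent on X. They made up 158 of 805 regions of X in replicate 1 (19.6%, 16.9 to 22.5) and 138 of 804 in replicate 2 (17.2%, 14.6 to 20.0), a mean of 18.4% ± 1.74 (SD, n = 2). On 2L, 2R, 3L and 3R together they made up 13.3% (12.3 to 14.4) and 12.2% (11.2 to 13.3). X was higher by 6.30 percentage points in replicate 1 and 4.93 in replicate 2, a mean of 5.62 ± 0.971 (SD, n = 2). The intervals of X and of these pooled arms did not overlap in either replicate. They handle regions as independent, though each tight gap makes both of its flanks members by the rule. The intervals are therefore too narrow, and the difference was not tested. Arm by arm, the interval of X lay above those of 2L, 2R, 3L and 3R in replicate 1. In replicate 2 it overlapped those of 2L (10.1 to 14.7) and 3R (11.1 to 15.2). The mean shares of the autosomal arms were 12.8% ± 0.754 on 2L, 11.9% ± 0.665 on 2R, 12.8% ± 1.05 on 3L and 13.5% ± 0.629 on 3R, and the intervals of these 4 arms overlapped in both replicates.

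The surplus on X stood beside fewer regions per Mb than on the 4 long autosomal arms pooled. X had 35.9 regions per Mb in each replicate, against 39.5 and 39.0 on the 4 long autosomal arms, but 7.05 and 6.15 tightly spaced regions per Mb against 5.27 and 4.77. Regions covered 17.9% and 17.6% of X, against 17.4% and 16.9%. The median of all gaps on X was 6337.5 and 6242 bp, against 6981 and 7219.5 bp, and the median region of X was longer, at 3822 and 3779 bp against 3341 and 3353 bp. Whether the length or spacing of regions had a part in the share on X was not tested. X held 11 of the 36 runs of 3 or more in replicate 1 and 7 of the 30 in replicate 2, beside 23.5% and 22.8% of the tightly spaced regions. In replicate 2, 3R with 8 such runs and 3L with 7 had as many or more.

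Tight gaps of X were tight again in the other replicate in 30 of 86 cases from replicate 1 (34.9%, 24.9 to 45.9) and 30 of 73 from replicate 2 (41.1%, 29.7 to 53.2). On the 4 long autosomal arms the shares were 46.3% (40.2 to 52.4) and 51.0% (44.6 to 57.5). The intervals overlapped, and whether agreement differed was not tested. Among the long autosomal arms 2R had the lowest shares, 36.5% and 39.7%, which were close to those of X.

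**Figure D5:**
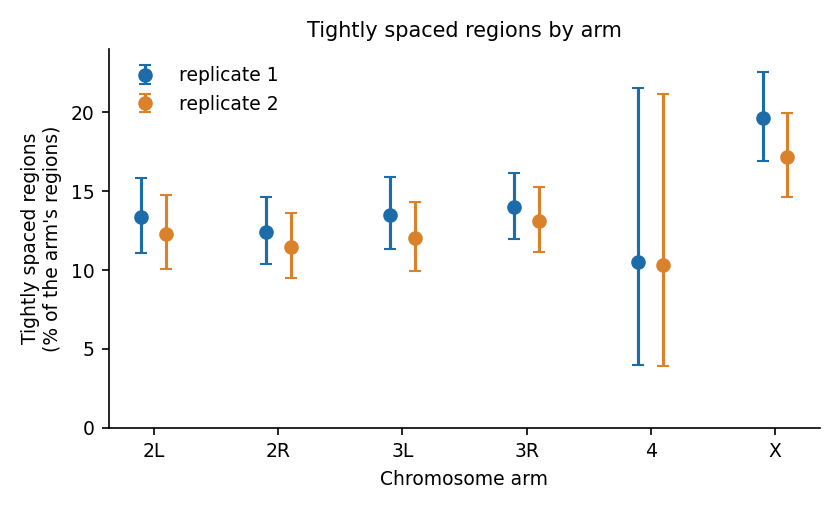
Tightly spaced regions as a percent of the regions on each arm (vertical axis) in each replicate, with exact binomial 95% intervals. X lies above the long autosomal arms in both replicates, and the interval of chromosome 4 is wide.

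On chromosome 4, the small and largely heterochromatic autosome, 6 of 57 regions in replicate 1 and 6 of 58 in replicate 2 were tightly spaced, a mean of 10.4% ± 0.128 (SD, n = 2). They formed the same 3 pairs in both replicates. The pair at 462584 to 468952 had gaps of 258 and 130 bp in replicates 1 and 2, with scores of 1.64 and 1.48 and of 1.52 and 1.49. The pair at 976480 to 982290 had gaps of 456 and 466 bp, with scores of 1.85 and 0.703 and of 1.59 and 0.671. The pair at 1232067 to 1237644 had gaps of 421 and 319 bp, with scores of 1.45 and 0.652 and of 1.46 and 0.566. In all 3 pairs the right region scored lower than the left one in both replicates, by the least in the first. The combined list kept all 3 pairs and added another at 1298218 to 1301929, with a gap of 117 bp.

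Along the arms, tightly spaced regions were found in most windows of 1 Mb, with a median of 6 per window in replicate 1 and 4.5 in replicate 2 over 118 windows. The window of X from 13 to 14 Mb had the most, with 21 in replicate 1 and 16 in replicate 2, in 10 and 8 runs. By the mean of both replicates it was followed by X from 6 to 7 Mb with 16 and 14, 3R from 4 to 5 Mb with 17 and 10, and X from 2 to 3 Mb with 14 and 10, an order that the replicates did not share. In all, 8 windows had 10 or more in both replicates and 7 had none in either, among them the window of 3R from 9000001 to 10000000 with 35 regions in each replicate. Between replicates the counts per window had a Spearman's rho of 0.62 over 118 windows. The counts also went with the number of regions in the window, with a rho of 0.63 in replicate 1 and 0.49 in replicate 2, and with the share of the window covered, with a rho of 0.61 and 0.47. These correlations are descriptions over windows that share their libraries and their arms.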

How the data were processed

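Per the submitters' processing notes, reads were aligned with Bowtie 0.12.7. Not given in the sources used here are the region caller, its threshold and how the replicates were pooled. The authors deposited 1 list of regions per immunoprecipitate and 1 for both together, and each region has a deposited score, a number with no stated scale, used here only to rank regions and describe pairs within a list. Coordinates are those of FlyBase release 5, per the file headers. No genome of that release was used, so no gene or sequence is given. Entries named as depletion in the combined list were left out.

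A gap is the start of a region minus the end of the previous one minus 1. A gap counts as joined where 1 region of the other list holds it and reaches both flanks, and as tight where consecutive regions overlapping both flanks lie under 500 bp apart. Starts were read as counted from 1. A region starting at 0 in replicate 2 leaves 1 bp of doubt. The places named are the 5 runs with the most regions in both replicates, the longest replicated run per arm, the 5 narrowest replicated gaps, the gaps joined by the longest regions and those with the widest counterparts, of which some are printed. The runs of 4, chromosome 4, the windows and the gaps of 0 bp were added after their values were seen. Members and lists were chosen with earlier results of these data known. Alternatives were gap limits of 250 and 1000 bp, regions above the median score, all sequences, other definitions of a match, the combined list and each replicate alone. The code was tested on simulated data. Python 3.11.15, numpy 2.4.6, pandas 2.3.3, scipy 1.17.1 and matplotlib 3.10.9 were used.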

Additional observations from a re-analysis of the deposited data

How the results depend on the processing

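Of 52 values of 11 results recomputed with both replicates or the combined list, 26 lay within the spread between replicates or 1.5 times the count, 25 moved and 1 turned sign. A gap limit of 250 bp and one of 1000 bp, which take in fewer and more gaps by construction, gave a share of tightly spaced regions of 7.42% and 23.8%, 361 and 1138 regions in replicate 1, 330 and 1078 in replicate 2, and 10.5 and 79.5 runs of 3 or more. With them the share of gaps joined by the other replicate was 38.3% and 17.6%, that tight in both 28.1% and 61.5%, that joined by the combined list 61.0% and 33.2%, the length difference 185.75 and 259.25 bp, and the surplus of X 3.73 and 6.84 percentage points. With regions above the median score alone, which leaves fewer regions by construction, the share was 10.6%, with 265 and 229 regions and 5.5 runs of 3 or more, and 42.2% of gaps were tight in both. The length difference there reversed to -71.25 bp, and the cause was not tested. The combined list gave a share of 16.1% and a surplus of X of 6.89 points, and the cause was not tested.

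With each replicate alone, which by construction keeps a value within 1 SD of the mean of 2, the values ranged from 13.1% to 14.4% for the share of tightly spaced regions, from 30 to 36 for runs of 3 or more, from 23.8% to 32.9% for joined gaps and from 44.0% to 49.2% for gaps tight in both. They ranged from 43.7% to 50.2% for gaps joined by the combined list, from 56.7% to 58.1% for scores above the median, from 30 to 143 bp for the length difference, from 329 to 368 for regions of 10 kb or more after joining, and from 4.93 to 6.30 points for X. The length difference thus moved by over 1.5 times with either replicate left out. Reading starts as counted from 0, and taking X or the long autosomal arms alone, were chosen after seeing the data. They gave 671 and 605 regions, and 30.5% and 28.0% of gaps joined. No paired analysis was possible because those inputs which share replicate numbers with the immunoprecipitates have no values here. Depth is unknown and limits every comparison between the lists.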

Other observations

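Outside the 6 arms, tightly spaced regions were nearly absent. Replicate 1 had 70 regions on the heterochromatic and unplaced sequences, of which 2 were tightly spaced, a pair on U with a gap of 491 bp. Replicate 2 had 71 regions there and none was tightly spaced, its smallest gap being 589 bp. The combined list had 83 regions there and a single tight pair, on U, with a gap of 473 bp.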
